A study of Mus musculus with 33 samples.

Results

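Bone marrow RNA taken 1 day after a venetoclax course was compared with marrow RNA of vehicle-treated mice of the same day, across every functional gene group on the probe panel. The comparison held 7 of the 33 mice of the series: the 3 mice labelled as venetoclax-treated on day 1, and all 4 vehicle-treated mice of day 1, of which 2 had received the venetoclax vehicle and 2 the ruxolitinib vehicle. The mice were assigned by their sample labels. The wider study also treated mice with ruxolitinib, a JAK1/2 inhibitor, sampled marrow on days 3 and 7, and included untreated mice. All mice were wild-type C57BL/6 females aged 6 to 8 weeks, without a transgene, a transplant or irradiation. Venetoclax was given by gavage once daily for 2 days (100 mg/ml in the labels, mg/kg in the study's methods) in 60% Phosal 50 PG, 30% PEG 400 and 10% ethanol, which was also the venetoclax vehicle. The ruxolitinib vehicle was 2% DMSO and 30% PEG 300 in water, given 2 times a day for 2 days. Each RNA was total marrow RNA of 1 mouse, so every cell type of the marrow contributed to each value.

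Venetoclax is a small molecule that mimics a BH3 domain and occupies the groove of BCL2, the anti-apoptotic protein of the mitochondrial pathway. Occupied BCL2 releases pro-apoptotic partners, and cells that rely on BCL2 rather than on BCL-XL or MCL1 for survival then die, among them many mature lymphocytes. Marrow is a mixture in which granulocytes and their precursors prevail, with B lineage cells, erythroid cells, monocytes, T cells, NK cells and dendritic cells beside them.

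Counts were scaled by housekeeping probes, and the scaled values are called normalised counts below. Values by mouse are given in 1 order throughout: venetoclax mice 1, 2 and 3, then venetoclax-vehicle mice 1 and 2, then ruxolitinib-vehicle mice 1 and 2. Endogenous counts per lane were 18056, 247929 and 79124 for venetoclax, against 119072 to 442402 for the vehicles. Venetoclax mouse 1 therefore had the shallowest lane of the series, in which 1 raw count equalled 5.55 normalised counts and the background, the mean plus 2 SD of the negative control probes, lay at 24.4 normalised counts. In the other 6 lanes that background lay between 2.49 and 4.04. Log2 fold changes are venetoclax minus both vehicles, with their standard errors, and a gene is described as called where its edgeR quasi-likelihood p, adjusted by the Benjamini-Hochberg method over the 655 genes tested, was under 0.05. An exact permutation test of 3 mice against 4 has 35 arrangements and cannot give a two-sided p under 0.0571, so that it cannot pass 0.05 for any single gene. The mice were separate animals.

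Venetoclax lowered 22 genes and raised 4 of the 655 tested, 26 in all (3.97% called, 3.36% lower and 0.611% higher), and 95 had an unadjusted p under 0.05. The lowered genes included 6 of the 8 MHC class II genes tested and the interferon-inducible genes Isg20, Rsad2 and Bst2. Also lowered were the signalling genes Fyn and Rela, the lymphoid genes Btla, Klrd1, Xcl1 and Tcf7, and Cd55, Tfrc, Icam4, Thbs1, Cmah and Ccr9. The raised genes included Trem2, Ikbke and App. In 23 of the 26 the 3 venetoclax mice lay wholly on 1 side of the 4 vehicle mice. Over all 655 genes the venetoclax mice lay below every vehicle mouse for 68 (10.4%) and above every vehicle mouse for 37 (5.65%), and the median log2 fold change was -0.047. Fewer cells of a type and less RNA per cell cannot be told apart in these bulk values.

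The calls rested on few mice. They numbered 7 without venetoclax mouse 3, 13 without venetoclax mouse 2 and 16 without ruxolitinib-vehicle mouse 2, and 19 to 24 without any of the other 4 mice. Of the 13 without venetoclax mouse 2, 9 were among the 26. H2-Aa, H2-Eb1, H2-Ab1 and Isg20 were called with each of the 7 mice left out in turn, and all 26 genes kept their sign in these fits. With the venetoclax-vehicle mice as the only controls, 1 gene was called and the calls of all genes named below ended, with adjusted p from 0.0529 (H2-DMb2) to 0.0814 (Cd74) for the 5 called class II genes other than Ciita, while the ruxolitinib-vehicle mice alone gave 18, without App, Cmah, Icam4, Ikbke, Rsad2, Tfrc, Thbs1 and Xcl1. With TMM scaling there were 17 calls, and those of App, Bst2, Btla, Ciita, Cmah, Icam4, Rela, Tfrc and Xcl1 ended. DESeq2 gave 20 calls, 19 of them shared with the 26, and there the calls of Bst2, Btla, Ciita, Cmah, Icam4, Rela and Xcl1 ended. Among the genes named below, limma with a pseudocount of 1 (27 calls, 22 shared) lost App, Ikbke and Thbs1, and with a pseudocount of 10 (21 calls, 18 shared) also Ccr9, Ciita, Tcf7 and Xcl1. Total count scaling (22 calls, 21 shared) lost Bst2, Cmah, Fyn, Tfrc and Thbs1, all 20 housekeeping probes (24 calls, 23 shared) lost Bst2, Ciita and Thbs1, and 13 group means (25 calls, 24 shared) lost Ciita and Thbs1. After subtraction of the negative control mean there were 15 calls, all lower and all among the 26, and those of App, Bst2, Btla, Ciita, Cmah, Icam4, Ikbke, Thbs1, Trem2 and Xcl1 were lost. A fit to only the lanes of the groups compared gave 35 calls, 28 lower and 7 higher, of which 24 were shared with the 26. App and Ciita were lost there, and among the added calls were Blnk, Cd79b, Ctsg, Fn1, H2-Ob, Ifitm1, Il18r1, Itga4 and Mpo, which are given below as not called. Between the vehicle groups, compared as 2 mice against 2, 0 genes were called (0% by edgeR, with 17 at an unadjusted p under 0.05, and 0 by DESeq2 or limma). So few mice could miss a difference, so that this count does not show the vehicles to be alike. Among the 26 genes the vehicles differed by up to 0.68 on the log2 scale.

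**Figure D1:**
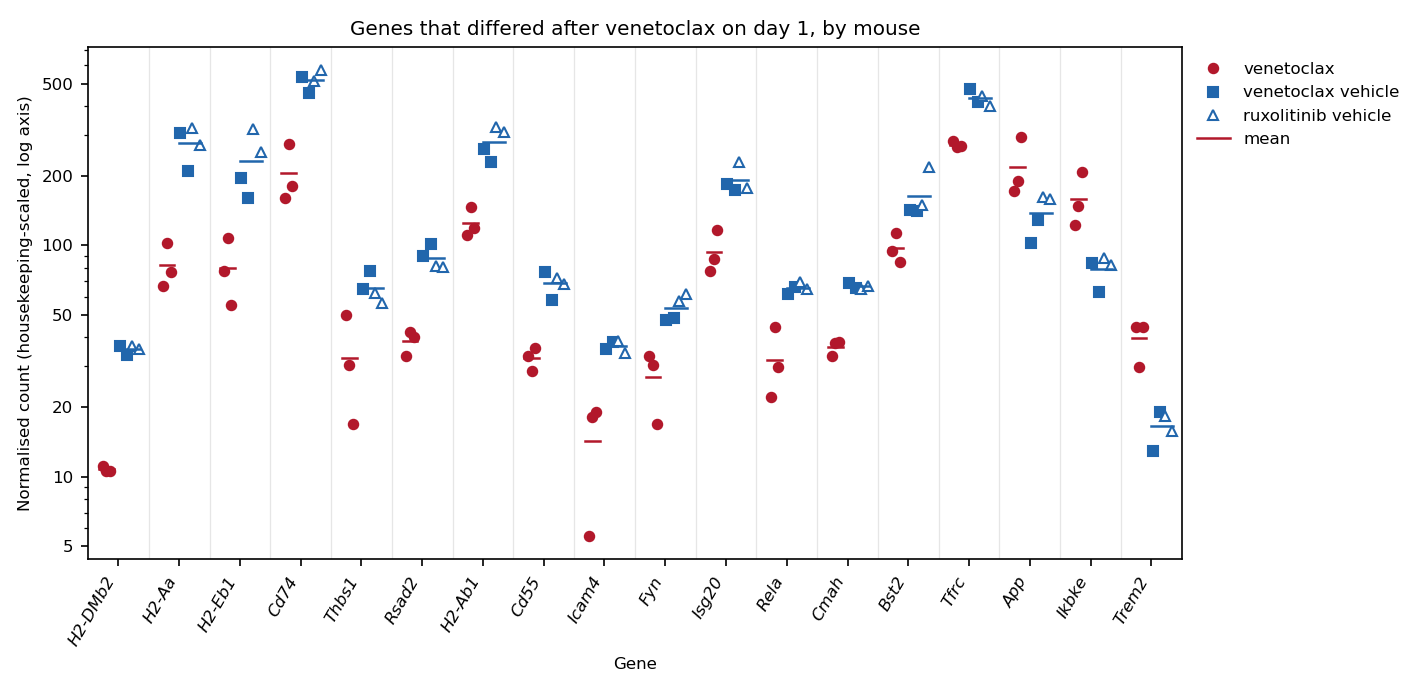
Normalised counts (log axis) of 18 genes that were called, did not overlap between the groups and averaged at least 20 normalised counts, for each of the 7 mice of day 1, ordered by log2 fold change, with horizontal lines at the group means. The 15 genes on the left have all 3 venetoclax mice below all 4 vehicle mice, and App, Ikbke and Trem2 on the right have them above.

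MHC class II had the median farthest from 0 of the 38 gene lists. MHC class II molecules present peptides to CD4+ T cells on B cells, dendritic cells and macrophages, and the panel held 8 genes of the pathway, of which all 8 were lower, 6 were called and 7 had all venetoclax mice below all vehicle mice. Over all genes 3.36% were called lower, and 10.4% had all venetoclax mice below all vehicle mice. The median log2 fold change of the class II genes was -1.35, against -0.047 over all genes. H2-Aa, the alpha chain of the I-A molecule, had normalised counts of 66.6, 103 and 76.4 after venetoclax and 305, 210.3, 321 and 273 after vehicle (-1.68 on the log2 scale, standard error 0.35, adjusted p = 0.00335). The groups were far apart, with means of 81.9 ± 18.7 (SD, n = 3) and 277 ± 49.1 (SD, n = 4). H2-Ab1, its beta chain, read 111, 146 and 119 against 260.0, 229, 324 and 308 (-1.12, standard error 0.22, adjusted p = 0.003). H2-Eb1, the beta chain of the I-E molecule, read 77.6, 108 and 55.2 against 196, 160.1, 317 and 253 (-1.46, standard error 0.28, adjusted p = 0.003). The ruxolitinib-vehicle mice were the highest for this gene, and the difference between the vehicles was -0.68 on the log2 scale, which did not pass adjustment.

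H2-DMb2 and Cd74, loading factors of the pathway, were called as well. H2-DMb2, a chain of the H2-M molecule that exchanges peptides, was tight within both groups, at 11.1, 10.6 and 10.6 after venetoclax and 36.7, 33.5, 36.6 and 35.6 after vehicle (-1.73, standard error 0.36, adjusted p = 0.00335). Venetoclax mouse 1 contributed 2 raw counts to this value, under background, and the call ended without venetoclax mouse 2. Cd74, the invariant chain that guards the peptide groove, read 161, 273 and 180.3 against 533, 456, 514 and 571 (-1.29, standard error 0.30, adjusted p = 0.0114), and its call ended without venetoclax mouse 3. Ciita, the transactivator that class II promoters depend on, averaged under 20 normalised counts, read 5.55, 5.61 and 2.12 against 8.63, 11.2, 14.7 and 15.4 and was called (adjusted p = 0.0359), with 1 of 3 venetoclax lanes above background, so that no fold is given, and the call was lost without any of 5 of the 7 mice. H2-Ob, a chain of the H2-O molecule that restrains H2-M, read 38.8, 37.4 and 78.5 against 76.6, 83.6, 94.3 and 97.9 and was not called (-0.80, adjusted p = 0.138), with -0.47 without venetoclax mouse 2 and -1.23 without venetoclax mouse 3. The untreated mouse of the same run had 160.0 normalised counts of H2-Aa, 189 of H2-Ab1, 221 of Cd74 and 12.8 of H2-DMb2 (the last under the background of its lane), in each case below all 4 vehicle mice, as were 33% of all genes tested. It lay within the vehicle range for H2-Eb1 (208) and above all 4 vehicle mice for H2-Ob (134). Ciita (19.2 in this mouse) was under the background of the untreated lane, so that no rank is given.

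The Y box is a promoter element of MHC class II genes, and its core was searched as GATTGG on both strands in the 250 bases before each start site, without overlap with the other motif searched. RefSeq promoter windows of build GRCm38.p6 were at hand for H2-Eb1, H2-Aa and H2-DMb2, and each held the core, as did 14.6% of the 32851 windows of that length. They are shown because these 3 genes were all called lower, and the other called class II genes were not searched. Capitals mark the core, 5′ to 3′ on the strand of the gene, at chr17:34305782-34305862 (plus strand) for H2-Eb1, chr17:34287842-34287897 (minus strand) for H2-Aa and chr17:34145133-34145188 (plus strand) for H2-DMb2.
H2-Eb1: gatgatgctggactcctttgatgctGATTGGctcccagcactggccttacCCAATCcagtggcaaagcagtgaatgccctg
H2-Aa: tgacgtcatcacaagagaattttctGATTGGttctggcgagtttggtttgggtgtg
H2-DMb2: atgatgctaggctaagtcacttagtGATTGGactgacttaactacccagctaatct
The first of the H2-Eb1 matches began 60 bases before the start site, that of H2-Aa 49 bases and that of H2-DMb2 91 bases. Such a match is a run of letters and no measurement of binding.

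Class I molecules present peptides to CD8+ T cells on nearly all cells, and 0 of 16 genes of MHC class I and antigen processing were called. Of the 16, 12 were lower, against 358 of all 655 genes, and 3 had all venetoclax mice below all vehicle mice, against 10.4% of all genes. Their median was -0.08, or -0.21 to 0.055 with 1 mouse left out. H2-T23, which encodes the non-classical molecule Qa-1, read 283, 345 and 297 against 377, 378, 433 and 403 (-0.35, adjusted p = 0.252). Tap2, a subunit of the peptide transporter, read 88.7, 78.5 and 127 against 44.2, 56.6, 69.6 and 72.2 (0.66, adjusted p = 0.265, or 0.41 without venetoclax mouse 3), so that its venetoclax mice lay above the vehicle mice while those of H2-T23 lay below.

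Among interferon-inducible antiviral genes, 3 of 25 tested were called, all lower, and 6 had every venetoclax mouse below every vehicle mouse, against 3.36% and 10.4% of all genes. The median was -0.28, or -0.15 without venetoclax mouse 3 and -0.43 without venetoclax mouse 2. Isg20, an exonuclease that degrades viral RNA, was 77.6, 87.2 and 117 after venetoclax and 183, 174, 229.8 and 177 after vehicle (-1.0, standard error 0.20, adjusted p = 0.003), and with the venetoclax vehicle as the only control the difference was -0.91 and not called (adjusted p = 0.0552). Rsad2, which encodes viperin, was 33.3, 42.4 and 40.3 against 89.6, 101, 81.5 and 80.8 (-1.13, standard error 0.29, adjusted p = 0.0177), and its call ended without venetoclax mouse 2 or 3. Bst2, which encodes tetherin and is also high on plasmacytoid dendritic cells, was 94.3, 113 and 84.8 against 142, 141, 150.2 and 218 (-0.72, standard error 0.20, adjusted p = 0.0327). Ruxolitinib-vehicle mouse 2 stood above the other vehicle mice for Bst2, and without it, or without any of the venetoclax mice, the call ended. The means of Isg20 were 93.8 ± 20.3 (SD, n = 3) and 191 ± 26.2 (SD, n = 4), a 2.04-fold higher mean after vehicle.

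The other 22 interferon-inducible genes were not called. Xaf1, an antagonist of the caspase inhibitor XIAP, read 5.55, 22.4 and 17 against 35.6, 31.1, 34.8 and 37.3 (-0.88, adjusted p = 0.0764), with the lowest value from the shallow lane at 1 raw count, and was -1.36 without venetoclax mouse 2. It was called by limma with a pseudocount of 1 (adjusted p = 0.0431) or 10 (adjusted p = 0.0205). Ifitm1, a membrane protein that hinders viral entry, lay in the other direction at 44.4, 83.5 and 102 against 53.9, 39.8, 52.2 and 46.6 (0.77, adjusted p = 0.122), and the groups overlapped. The cytosolic RNA sensors Ifih1 and Ddx58, which encode MDA5 and RIG-I, had log2 fold changes of -0.66 (adjusted p = 0.252) and -0.36 (adjusted p = 0.55), and Ddx58 was -0.73 without venetoclax mouse 2 and -0.19 without venetoclax mouse 3. The untreated mouse of the run had 131 normalised counts of Isg20, 128 of Rsad2 and 122 of Bst2, which is between the groups for Isg20, above all 7 mice for Rsad2 and between the groups for Bst2. Interferon regulatory factors had 0 of 7 called, JAK-STAT and SOCS genes 0 of 12, and interferon and growth factor receptors 0 of 11. Jak3, the kinase of the common gamma chain, read 61, 57.9 and 70.0 against 44.2, 30.3, 40.3 and 56.5 (0.51, adjusted p = 0.258), and Jak2 had a log2 fold change of -0.78 (adjusted p = 0.252).

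Interferon-response elements were searched as GAAANNGAAA on both strands in the same 250-base RefSeq windows, of which 2.98% held a match. Rsad2 and Bst2 each held it and are shown because both fell, whereas the 3 windows of Isg20 did not hold these letters. Capitals mark the matches, 5′ to 3′ on the strand of the gene, at chr12:26456538-26456597 (minus strand) for Rsad2, where the match is on the opposite strand, and at chr8:71537562-71537627 (minus strand) for Bst2, where 2 matches overlap.
Rsad2: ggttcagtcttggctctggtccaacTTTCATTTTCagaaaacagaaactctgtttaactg
Bst2: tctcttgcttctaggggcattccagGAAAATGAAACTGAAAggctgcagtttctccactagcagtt
The match began 120 bases before the start site of Rsad2 and 130 bases before that of Bst2.

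Of 21 tested genes of the NF-kappaB pathway, 2 were called lower and 1 higher, against 3.36% and 0.611% of all genes. NF-kappaB is the transcription factor family through which lymphocytes respond to antigen, cytokines and microbial products. Rela, the p65 subunit, was 22.2, 44.2 and 29.7 after venetoclax and 61.5, 66.1, 69.6 and 64.7 after vehicle (-0.85, standard error 0.21, adjusted p = 0.0132), and its call ended without venetoclax mouse 3. Ikbke, a kinase that acts downstream of nucleic acid sensors, rose from 84.2, 62.9, 87.9 and 82.5 after vehicle to 122, 148 and 208 after venetoclax (1.03, standard error 0.29, adjusted p = 0.0325). The means of Ikbke were 159 ± 44.1 (SD, n = 3) and 79.4 ± 11.2 (SD, n = 4), the groups did not overlap, and the call was lost without any of 5 of the 7 mice. Tnfaip3, the feedback inhibitor A20, read 22.2, 23 and 21.2 against 35.6, 32.7, 37.5 and 31.8 and was not called (-0.60, adjusted p = 0.182).

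Fc receptor and Src/Syk kinase genes gave 1 call among 22, lower, where 3.36% of all genes were called lower. Fyn, a Src family kinase of T cells and other leukocytes, was 33.3, 30.5 and 17 against 47.5, 48.6, 57.7 and 61.6 (-1.01, standard error 0.27, adjusted p = 0.0233), the single call among 22 genes of that list, and it ended without venetoclax mouse 2 or 3 or ruxolitinib-vehicle mouse 2. Blnk, the adaptor of the B cell receptor, read 5.55, 16.2 and 12.7 against 41, 24.7, 43 and 28.1 (-1.24, adjusted p = 0.138), and Blk, a Src family kinase of B cells, read 38.8, 9.34 and 17 against 23.7, 23.9, 30.2 and 28.8 (-0.87, adjusted p = 0.228). All venetoclax mice were below all vehicle mice for Blnk, whereas Blk overlapped because venetoclax mouse 1 was the highest of the 7, and the difference for Blk was -0.17 without venetoclax mouse 2.

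In the mature B cell and BAFF system list, 24 of 29 tested genes were lower, against 358 of all 655, with a median of -0.36. The calls were 2 of the 29, both lower, where 3.36% of all genes were called lower. Cd55, which protects cells from complement and is listed with complement as well, was 33.3, 28.7 and 36.1 after venetoclax and 76.6, 58.2, 72.3 and 68.1 after vehicle (-1.12, standard error 0.30, adjusted p = 0.0233). Btla, an inhibitory receptor of B and T cells, was 11.1, 23.7 and 44.5 against 50.7, 43, 57.7 and 73.6 (-1.03, standard error 0.27, adjusted p = 0.0233). The groups overlapped for Btla, where venetoclax mouse 3 exceeded venetoclax-vehicle mouse 2, and its call ended without venetoclax mouse 1 or 2 or ruxolitinib-vehicle mouse 2. Cd55 lost its call without venetoclax mouse 2 or 3 or venetoclax-vehicle mouse 1. Cd180, a Toll-like receptor homologue of B cells, read 66.6, 110.3 and 138 against 153, 159, 167 and 159.9 without overlap and was not called (-0.54, adjusted p = 0.137). Icosl, the ligand of the co-stimulator ICOS, read 27.7, 19.3 and 17 against 41, 30.3, 26.6 and 46.6 (-0.90, adjusted p = 0.0908), and Ltb, which encodes lymphotoxin beta, read 27.7, 29.9 and 10.6 against 41, 30.3, 44 and 50.7 (-0.80, adjusted p = 0.29). Icosl was called without ruxolitinib-vehicle mouse 1 (adjusted p = 0.0471), and Ltb was -1.40 without venetoclax mouse 2 and -0.51 without venetoclax mouse 3.

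B lineage precursors gave 0 calls among 13 genes tested, although 12 of the 13 had values below vehicle on average (median -0.22), against 358 of all 655 genes. The median was 0.0019 with the venetoclax vehicle as the only control and -0.091 without ruxolitinib-vehicle mouse 1. Cd79b, a signalling chain of the pre-B and B cell receptor, read 66.6, 67.9 and 33.9 against 115, 97.2, 111 and 89 (-0.85, standard error 0.36, adjusted p = 0.252). The receptor for interleukin-7, Il7r, overlapped between groups at 83.2, 114 and 110.3 against 97.1, 107, 166 and 139 (-0.27, adjusted p = 0.77), or -0.12 without ruxolitinib-vehicle mouse 1. Summed over Cd79a, Cd79b, Ms4a1, Cr2 and Igll1, B lineage markers were 238, 186 and 142 normalised counts after venetoclax and 221 to 277 after vehicle, so that the shallow lane overlapped the vehicles and the other 2 venetoclax mice lay below them. Of these 5, Cr2 was above background in 0 of 7 lanes and Cd79b, Ms4a1 and Igll1 in all 7. The part of B cell numbers in the class II results was not tested. Plasma cell genes had 0 of 8 called, with a median of -0.02.

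T cell and NK cell transcripts were low in marrow, and few passed. Of 29 T cell genes 22 were lower and 1 was called, lower, against 358 of 655 and 3.36% of all genes, and 26 of the 29 were at or under background in venetoclax mouse 1. The list had a median of -0.25 that was 0.0094 without venetoclax mouse 2 and -0.52 without venetoclax mouse 1. Tcf7, the transcription factor TCF1 of naive and memory T cells, had normalised counts of 5.55, 1.87 and 2.12 after venetoclax and 18.3, 9.56, 10.1 and 13.7 after vehicle (adjusted p = 0.0131). All 3 venetoclax lanes were at or under background for Tcf7 and all 4 vehicle lanes above it, so that no fold is given, and the call ended without venetoclax mouse 2 or 3 and with a pseudocount of 10. Cd3d, a chain of the T cell receptor complex, read 22.2, 11.2 and 19.1 against 22.7, 31.9, 24.7 and 30.5 without overlap (-0.94, adjusted p = 0.197), or -0.47 without venetoclax mouse 2. The sum of Cd3d, Cd3e, Cd3g, Cd4 and Cd8a was 29.3 to 66.6 after venetoclax and 55.8 to 60.3 after vehicle, and the highest sum came from the shallow lane, in which most of these markers were under background.

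Of 31 genes of NK cells and cytotoxicity, 28 of them at or under background in venetoclax mouse 1, 2 were called, both lower, against 3.36% of all genes, and the median was -0.29, or 0.14 without venetoclax mouse 2. Klrd1, the CD94 chain of NKG2 receptors, was 11.1, 8.72 and 8.48 after venetoclax and 28.1, 21.5, 23.8 and 28.1 after vehicle (-1.51, standard error 0.37, adjusted p = 0.0151), with no overlap, and the call ended without venetoclax mouse 2 or 3. It averaged under 20 normalised counts, venetoclax mouse 1 contributed 2 raw counts under background, and with a pseudocount of 10 the difference was -0.86. Xcl1, a chemokine of NK and CD8+ T cells that draws dendritic cells, read 5.55, 2.49 and 2.12 against 10.8, 8.76, 8.24 and 8.56 (adjusted p = 0.0325), again with all venetoclax lanes at or under background and all vehicle lanes above. The call of Xcl1 ended without any of 4 of the 7 mice (venetoclax mouse 2 or 3, venetoclax-vehicle mouse 1 or ruxolitinib-vehicle mouse 2) and with a pseudocount of 10. Klra2, a Ly49 receptor, read 44.4, 94.7 and 63.6 against 85.2, 104, 127 and 141 and overlapped (-0.63, adjusted p = 0.189), or -1.02 without venetoclax mouse 2. The sum of Ncr1, Klrd1, Prf1 and Eomes was 49.9, 21.2 and 21.2 after venetoclax and 35.1 to 56.8 after vehicle, with the overlap from the shallow lane, where 49.9 is 9 raw counts over 4 probes. Immune checkpoint genes had 1 call among 25, Btla, lower, where 3.36% of all genes were called lower. Their median of -0.20 turned to 0.29 without venetoclax mouse 2, 0.13 with limma at a pseudocount of 1 and 0.046 with DESeq2.

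Dendritic cell genes gave 2 calls among 14, both lower, Bst2 and Ccr9, where 3.36% of all genes were called lower and 11 of the 14 were at or under background in venetoclax mouse 1. Ccr9, a chemokine receptor of plasmacytoid dendritic cells and gut-homing T cells, read 11.1, 1.87 and 2.12 against 10.8, 11.2, 15.6 and 15.1 (adjusted p = 0.0233). The venetoclax lanes were all at or under background for Ccr9, the shallow lane overlapped the vehicles, and no fold is given. The call ended without venetoclax mouse 2 or 3 or ruxolitinib-vehicle mouse 2 and with a pseudocount of 10. Irf8, a transcription factor of dendritic cells and monocytes, read 66.6, 90.9 and 76.4 against 119, 74.9, 127 and 116 (-0.43, adjusted p = 0.377). Across 45 chemokine and chemokine receptor genes, Ccr9 and Xcl1 were the calls, both lower, where 3.36% of all genes were called lower. Ccl9, a chemokine of myeloid cells, was nearly equal among venetoclax mice at 372, 376 and 373, above every vehicle mouse at 255, 268, 318 and 290.0, and was not called (0.40, adjusted p = 0.258).

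Monocyte and macrophage genes held 2 raised members out of 35 tested, where 0.611% of all genes were raised, and 5 of the 35 had every venetoclax mouse above every vehicle mouse, against 5.65% of all genes. Trem2, a lipid-sensing receptor of macrophages, rose from 12.9, 19.1, 18.3 and 15.7 after vehicle to 44.4, 29.9 and 44.5 after venetoclax (1.13, standard error 0.28, adjusted p = 0.0132). Its mean was 2.4 times that of vehicle, and the call ended without venetoclax mouse 3. App, the amyloid precursor protein, was 172, 190.0 and 293 against 102, 128, 162 and 159 (0.67, standard error 0.19, adjusted p = 0.0327), and without venetoclax mouse 3, the highest of the 7, its log2 fold change was 0.40 and it was not called. The call of App also ended without venetoclax-vehicle mouse 1 or 2. Cd36, a scavenger receptor of macrophages, platelets and erythroid precursors, read 5.55, 14.9 and 23.3 against 53.9, 35.1, 32.1 and 22.6 (-1.09, adjusted p = 0.191). Over the whole list the median was 0.053, close to that of all genes, and the sum of Csf1r, Ccr2, Cd68 and Cx3cr1 was 538 to 602 after venetoclax and 439.8 to 572 after vehicle.

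Granulocyte genes, the most abundant transcripts of the panel in marrow, gave 0 calls among 21 and a median of 0.02. Mpo, the myeloperoxidase of promyelocytes, read 3023, 1635 and 1440.3 after venetoclax against 1322, 933, 835 and 635 after vehicle, without overlap (1.12, standard error 0.37, adjusted p = 0.0941). Venetoclax mouse 1 was highest for Mpo, and without it the log2 fold change was 0.73 (adjusted p = 0.401). With all 7 mice, Mpo was called by DESeq2 (adjusted p = 0.0412), with all 20 housekeeping probes (adjusted p = 0.0384) and with only the lanes of the groups compared (adjusted p = 0.0117). Ctsg, a protease of primary granules, read 66.6, 105 and 121 against 73.4, 62.1, 60.4 and 34.2 (0.86, adjusted p = 0.404). Summed neutrophil markers, led by S100a8, ran from 50425 to 117639 in the venetoclax mice and from 74359 to 96566 in the vehicle mice, so that the groups overlapped. Eosinophil, basophil and mast cell genes had 0 of 10 called. Prg2, the major basic protein of eosinophils, read 161, 491 and 655 against 534, 412, 645 and 564, with the low value from the shallow lane.

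Tfrc, Icam4, Thbs1 and Cmah were single calls. Tfrc, the transferrin receptor through which dividing and erythroid cells take up iron, was tight within both groups, at 283, 266 and 269 after venetoclax and 474, 417, 441 and 401 after vehicle (-0.67, standard error 0.19, adjusted p = 0.0325). The groups were far apart relative to their ranges, yet the call ended with any 1 of the 7 mice left out. Icam4, an adhesion molecule of red cells and their precursors, read 5.55, 18.1 and 19.1 against 35.6, 38.2, 38.5 and 34.2 (-1.11, standard error 0.30, adjusted p = 0.0236), with 1 raw count in venetoclax mouse 1 and the call lost without any of the venetoclax mice. Thbs1, the platelet protein thrombospondin-1, read 49.9, 30.5 and 17 against 64.7, 77.3, 62.3 and 56.5 (-1.15, standard error 0.34, adjusted p = 0.0481), and it stayed called only without venetoclax mouse 1 among the 7 mice left out. Cmah, an enzyme of sialic acid synthesis on none of the lists, read 33.3, 38 and 38.2 against 69.1, 65.3, 65 and 67.1 (-0.83, standard error 0.23, adjusted p = 0.0325), and its call ended without any of 6 of the 7 mice.

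Megakaryocyte and platelet genes had 1 of 9 called, Thbs1, lower, where 3.36% of all genes were called lower. Of the 9, 2 had all venetoclax mice below all vehicle mice, against 10.4% of all genes. Their median was -0.51, or -0.27 with the ruxolitinib vehicle as the only control. The sum of Itga2b and Ppbp was 65.8 to 88.7 after venetoclax and 95.2 to 173 after vehicle, without overlap. Itga2b, the platelet integrin chain, read 22.2, 29.3 and 29.7 against 46.4, 42.2, 42.1 and 34.9 (-0.52, adjusted p = 0.404). Itga4 and Itgb1, the chains of the VLA-4 integrin by which blood cells hold to stroma, each had all venetoclax mice below all vehicle mice, with log2 fold changes of -0.72 (adjusted p = 0.209) and -0.51 (adjusted p = 0.197). Itgb1 was -0.93 and called without venetoclax mouse 2 (adjusted p = 0.0456), and -0.24 without venetoclax mouse 3. Tal1, a transcription factor of erythroid and megakaryocytic cells, read 27.7, 28 and 25.5 against 55, 46.2, 51.3 and 35.3 (-0.76, adjusted p = 0.197). Stem and progenitor cell genes had 0 of 22 called with a median of -0.07, and the sum of Kit, Cd34 and Flt3 overlapped at 29.3 to 44.4 against 23.8 to 46.4. Cell division genes had 1 of 11 called, Tfrc, lower, against 3.36% of all genes, and a median of 0.13.

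Complement and stroma stood out by median, on few counts. Complement genes had a median of 0.49 over 25 genes with 2 called, Cd55 lower and 1 higher, against 3.36% and 0.611% of all genes. Marrow stroma genes had a median of 0.42 over 20 with 0 called. Both medians stayed above 0 in every alternative run, but that of complement was 0.23 without venetoclax mouse 1 and 0.98 without venetoclax mouse 2. The stroma median was 0.42 without venetoclax mouse 1, as with all mice, and 0.56 without venetoclax mouse 2. With a pseudocount of 10 the medians of complement and stroma were 0.26 and 0.22. Leaving out single mice turned the sign of the median in 22 of the 38 lists, and the medians of 4, the MHC class II, mature B cell, stroma and megakaryocyte lists, moved by at most 1.5 times. Other alternatives moved these medians by over 1.5 times, except that of MHC class II. The stroma median was 0.22 with a pseudocount of 10. That of megakaryocytes was -0.27 with the ruxolitinib vehicle alone, and that of mature B cells -0.69 after subtraction of the negative control mean. However, 16 of the 25 complement genes and 15 of the 20 stroma genes were at or under background in venetoclax mouse 1, where 1 raw count scales to 5.55. Of all 25 complement genes 9, and of all 20 stroma genes 5, averaged at least 20 normalised counts. Fn1, the matrix protein fibronectin, read 211, 169 and 233 against 142, 120.3, 135 and 121 without overlap and was not called (0.64, adjusted p = 0.404). The sum of the stroma and endothelium markers Cxcl12, Col3a1, Cdh5 and Pecam1 was 66.6 to 116 after venetoclax and 83.6 to 111 after vehicle, and Col3a1 was above background in 0 of 7 lanes.

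**Figure D2:**
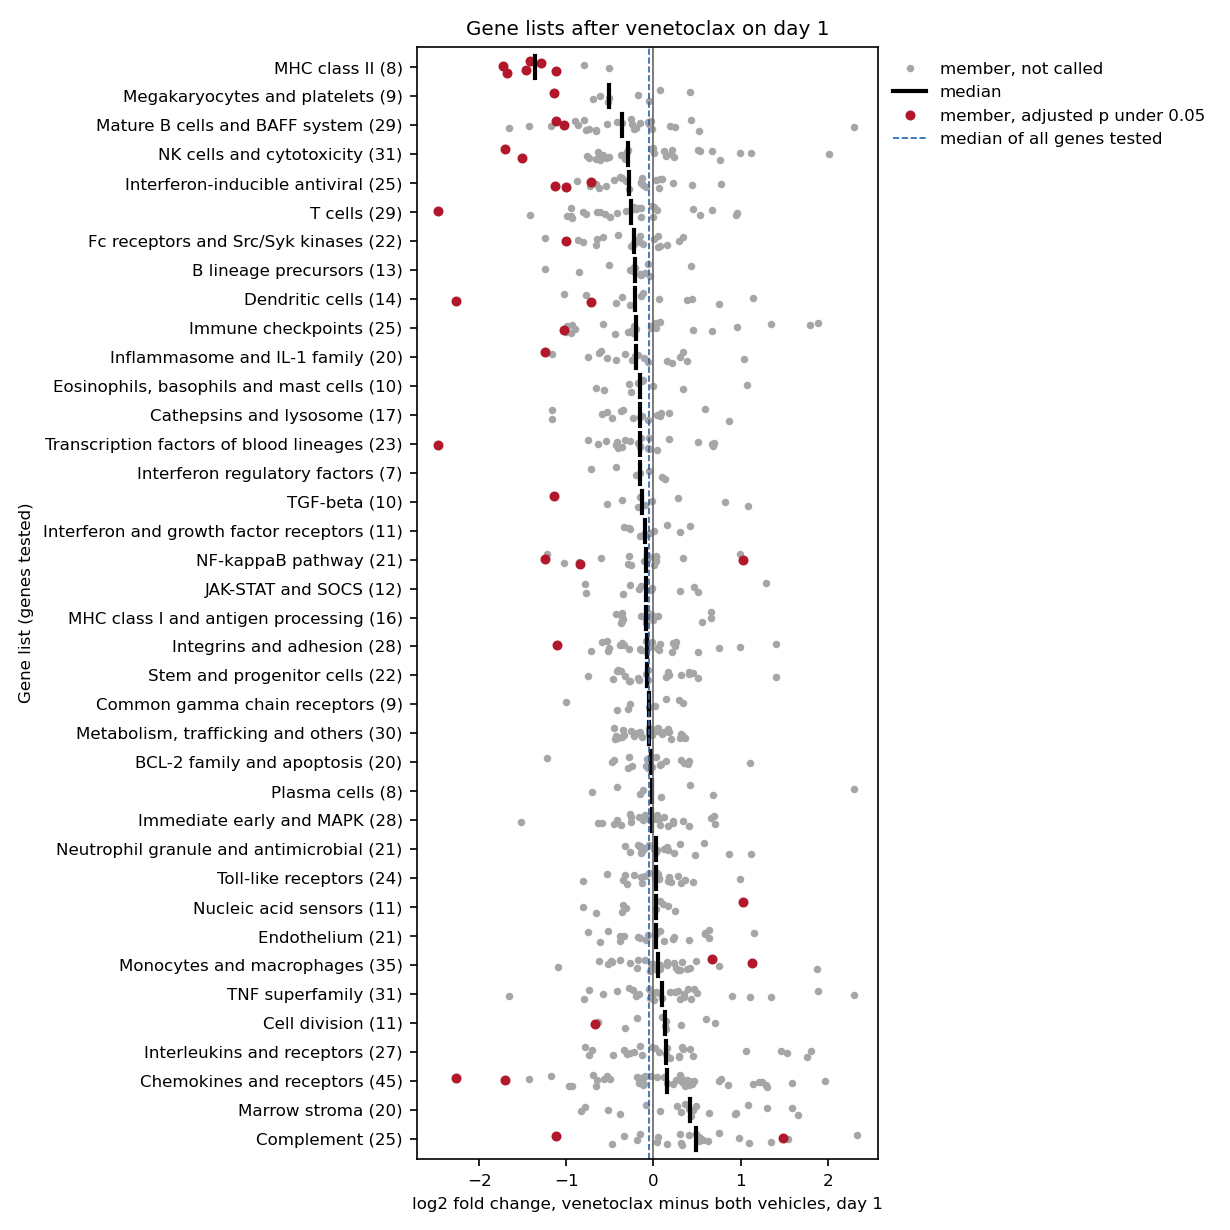
Log2 fold change of venetoclax minus both vehicles on day 1 (horizontal axis) for every tested member of 38 gene lists, ordered by the list median (black bar), with called members in red, other members in grey and the median of all genes tested as a dashed line at -0.047. The MHC class II list lies apart at -1.35, and complement and stroma lie at 0.49 and 0.42.

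Genes of the BCL-2 family and apoptosis gave 0 calls among 20 tested, with a median of -0.03. BCL2 itself is the protein target, and its transcript Bcl2 read 22.2, 24.9 and 33.9 after venetoclax and 25.9, 21.5, 27.5 and 35.3 after vehicle (-0.058, standard error 0.33, adjusted p = 0.98), with the groups interleaved. Bcl2l1, which encodes BCL-XL, read 61, 43 and 29.7 against 58.3, 47, 58.6 and 42.8 (-0.29, standard error 0.25, adjusted p = 0.719), or -0.11 without venetoclax mouse 3. Bax, the effector that permeabilises mitochondria, read 27.7, 23.7 and 36.1 against 30.2, 28.7, 26.6 and 27.7 (-0.021, standard error 0.24, adjusted p = 0.994). The directions of Bcl2 and Bax flipped between scalings, TMM and DESeq2 putting both above 0. Among the death pathway genes, Trp53 read 94.3, 130.2 and 187 against 86.3, 98, 109.9 and 128 (0.41, adjusted p = 0.656) and the death receptor Fas 33.3, 36.8 and 50.9 against 18.3, 28.7, 36.6 and 36.6 (0.39, adjusted p = 0.657), both overlapping. Without venetoclax mouse 3 they were 0.15 and 0.22. Txnip, a thioredoxin inhibitor, was the member with the lowest p among those averaging at least 20 normalised counts, at 299, 247 and 242 against 318, 319, 397 and 389 without overlap (-0.46, adjusted p = 0.258). Mcl1 and Bcl2l11 were not analysed here.

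**Figure D3:**
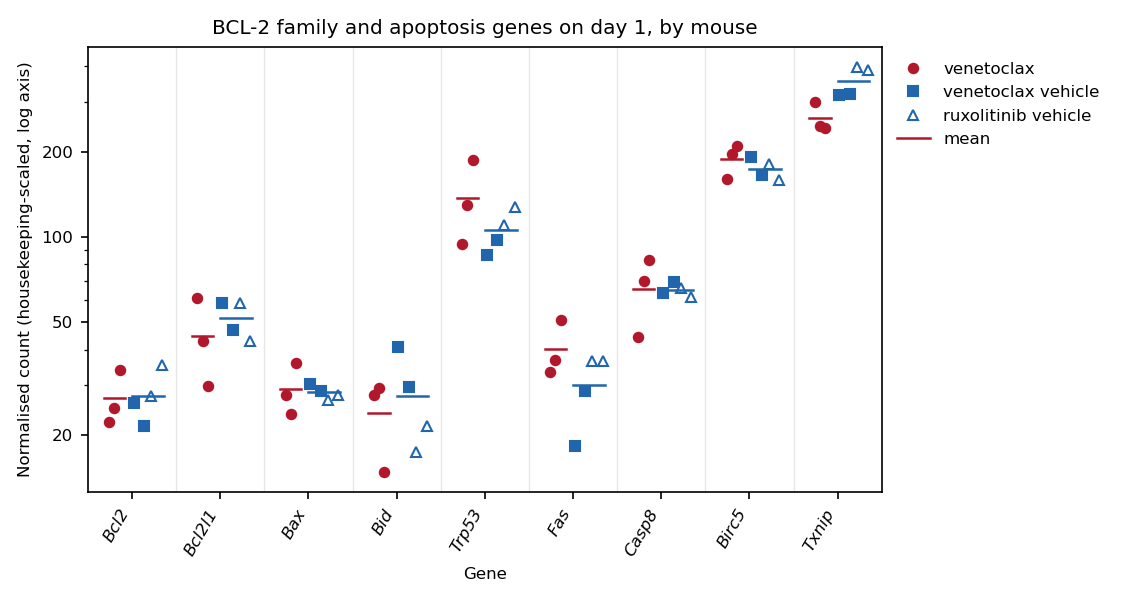
Normalised counts (log axis) of 9 BCL-2 family and apoptosis genes in each of the 7 mice of day 1, with horizontal lines at the group means. Venetoclax and vehicle mice overlap for 8 of the 9 genes, and for Txnip all 3 venetoclax mice lie below all 4 vehicle mice.

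Cytokine and innate sensor lists held few or no calls. Inflammasome and IL-1 family genes had 1 of 20 called, and 6 of the 20 had every venetoclax mouse below every vehicle mouse, against 3.97% called and 10.4% below over all genes. Il18r1, a chain of the interleukin-18 receptor, read 5.55, 14.3 and 17 against 30.2, 37.4, 26.6 and 31.5 (-1.16, adjusted p = 0.0679), with 1 raw count in the shallow lane. It was called with total count scaling (adjusted p = 0.0325), by limma with a pseudocount of 1 or 10 (adjusted p = 0.0218 and 0.0205) and with 13 group means (adjusted p = 0.0289). Il10ra, the receptor chain for interleukin-10, read 38.8, 25.5 and 21.2 against 47.5, 35.1, 45.8 and 43.1 (-0.71, adjusted p = 0.114). Toll-like receptor genes had 0 of 24 called, TNF superfamily genes 0 of 31, interleukins and their receptors 0 of 27, common gamma chain receptors 0 of 9 and immediate early and MAPK genes 0 of 28. Dusp6, the phosphatase that ERK signalling induces, read 83.2, 94.1 and 59.4 against 119, 115, 135 and 131 without overlap (-0.63, adjusted p = 0.137). Endothelial genes (21), cathepsins and lysosomal genes (17) and genes of metabolism and trafficking (30) also gave 0 calls. TGF-beta genes had 1 of 10 called, Thbs1, and transcription factors of blood lineages 1 of 23, Tcf7. Both were lower, where 3.36% of all genes were called lower.

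The day 1 difference was set against that of days 3 and 7, each from its own vehicle mice and its own run. All 26 genes called on day 1 had a smaller absolute log2 fold change on day 3 and again on day 7, and 20 kept their sign on each day. Since the genes were chosen for being called on day 1, smaller later values are a description and no test. In the order of days 1, 3 and 7, H2-DMb2 was -1.73, -1.0 and -0.81, H2-Eb1 -1.46, -0.79 and -0.94, and Btla -1.03, -0.85 and -0.60, each below 0 throughout. Isg20 was -1.0, -0.22 and 0.22, Rsad2 -1.13, 0.12 and 0.21, and Tfrc -0.67, 0.14 and 0.34, near or above 0 on the later days. Trem2 was 1.13, -0.26 and 0.49, and Ikbke 1.03, -0.087 and 0.13. Tested as the day 1 effect minus the mean of the later effects over all genes, 0 differed (0% called by edgeR, 0 by DESeq2), 81 had an unadjusted p under 0.05, and the lowest adjusted p was 0.0658, shared by Isg20, Tfrc, Xcl1, Rsad2 and Cd36. The difference was -1.0 for Isg20 (standard error 0.23), -0.91 for Tfrc (standard error 0.23) and -1.29 for Rsad2 (standard error 0.34), and -0.95 for H2-Aa (standard error 0.41, adjusted p = 0.325). Day and run cannot be told apart, although each effect was taken within a run.

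**Figure D4:**
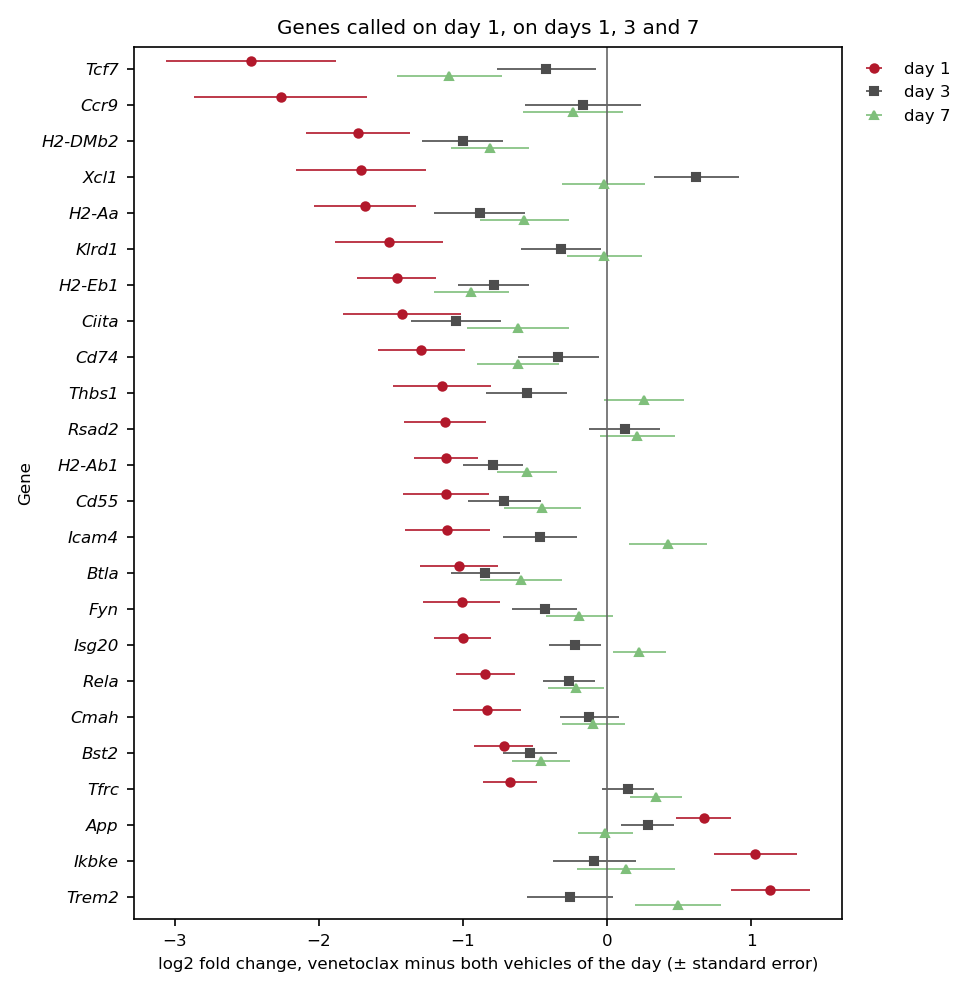
Log2 fold change of venetoclax minus both vehicles of the same day (horizontal axis, with standard errors) on days 1, 3 and 7 for 24 of the 26 genes called on day 1. Every gene shown lies farthest from 0 on day 1, the MHC class II genes and Btla stay below 0 on days 3 and 7, and Tfrc and Rsad2 lie above 0 on both later days.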

How the data were processed

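Barcode counts were measured on the NanoString nCounter, 1 lane per mouse without amplification, for 750 endogenous, 20 housekeeping, 8 negative and 6 positive control probes. The deposited values are raw counts, as the authors exported them, without the later normalisation in nCounter Advanced Analysis. The methods and the design text give different names to the panel. For the day 3 mice the run header names another day than the labels, which were followed.

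Size factors were geometric means of 11 housekeeping probes, those exceeding background (negative probe mean plus 2 SD) in all 33 lanes. For 655 genes that exceeded background in 2 or more lanes, edgeR 4.0.16 (R 4.3.3) fitted its quasi-likelihood model to the counts in 1 design of 10 groups, in which the vehicle groups of a day were pooled, with 23 residual degrees of freedom and a common dispersion of 0.0391 (coefficient of variation 19.8%). P-values were adjusted by the Benjamini-Hochberg method with a threshold of 0.05. The vehicle groups were compared in a model of 13 groups. DESeq2 1.42.0 and limma 3.58.1 were alternatives, beside other scalings, filters, controls, a pseudocount of 10 in place of 1, a replicate block and each mouse left out. In simulated counts of 655 genes for the venetoclax day 1 comparison, 200 were changed and 155 were called. Of those called, 96.8% were changed, and 69% of 2-fold and 81% of 4-fold changes were recovered. These shares are for 200 changed genes of 655. The measured counts gave 26 calls, and the shares with fewer genes changed were not tested.

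Members, the 38 gene lists and the rule for named genes were chosen with earlier results of these data known. Named genes were the called genes that did not overlap between groups and averaged at least 20 normalised counts over the 7 mice, up to 2 further genes per list by the smallest p at that mean, the BCL-2 family and cell type markers. Tcf7, Ccr9, Xcl1 and Ciita fall outside the rule, as do Bid, Casp8 and Birc5, and were chosen after their values were seen. Klrd1 is among the NK cell markers, but its fold change was added after its values were seen. Some genes that entered the counts are not reported here by name. Of the 750 symbols, 734 matched RefSeq annotation, 8 matched by a synonym and 8 did not. No comparison of the authors was used, and ruxolitinib-treated mice entered the choice of housekeeping probes, the filter on low counts and the estimate of spread alone.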

Additional observations from a re-analysis of the deposited data

Results flagged for a closer look

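Among the 4 vehicle-treated mice of day 1, Bst2 was 217.7 normalised counts in ruxolitinib-vehicle mouse 2 and 141 to 150.2 in the other 3. Itga4 was 92.8 in the same mouse and 117 to 122 in the others. Jak2 was 77.7 in venetoclax-vehicle mouse 1 and 57.4 to 57.7 in the others. In each case the gap of that mouse to its nearest neighbour took up more of the group's range than Dixon's critical value for 4 samples allows. Chance gives about 1 in 20 such gaps, and 3 were found in 89 genes examined.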

How the results depend on the processing

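The 26 calls on day 1 became 17 with TMM scaling, 15 after subtraction of the negative control mean (added after seeing the data) and 1 with the venetoclax vehicle as the only control, 35 with only the lanes of the groups compared, 27 with limma and a pseudocount of 1, and 7 to 24 with 1 mouse left out. The 26 genes kept their sign in every alternative run. Subtraction moved the median of all genes from -0.047 to -0.18, and the other scalings moved it by under 0.1. The difference between days, 0 genes, was 4 with all 20 housekeeping probes, 3 with limma and a pseudocount of 10, 2 with only the lanes of the groups compared, 1 with the venetoclax vehicle alone and 0 to 1 with 1 mouse left out. The comparison of the vehicles stayed at 0 throughout. Il7r turned to 0.056 with the venetoclax vehicle alone. Bcl2 turned to 0.0020 with TMM, 0.038 with DESeq2 and 0.21 with the venetoclax vehicle alone. Bax turned to 0.035 with TMM, 0.058 with DESeq2, 0.023 and 0.021 with limma at pseudocounts of 1 and 10, and 0.028 with the ruxolitinib vehicle alone. With 1 mouse left out, Bcl2 ranged from -0.21 to 0.13, Bax from -0.21 to 0.24, Irf4 from -0.55 to 0.0091, Nfatc1 from -0.27 to 0.10 and Prg2 from -0.62 to 0.083. The cause was not tested. A pseudocount of 10 shrinks low genes by construction, H2-DMb2 to -1.13.

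Replicate numbers are shared between groups but name different mice, and no samples were paired in the main fit. The deviations of same-numbered mice correlated at -0.019 to 0.17, but in groups this small that check cannot exclude a pairing. A fit with the replicate block called 24 genes on day 1 (23 of the 26, without App, Bst2 and Ciita, and Icosl in addition), 0 for the difference between days and 0 between the vehicles.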

Other observations

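The run of day 1 held 1 untreated mouse, which entered no comparison of the groups above. Of the 22 genes that venetoclax lowered, 13 were lower in this untreated mouse than in all 4 vehicle mice, and of the 4 that it raised, 2 were higher than in all 4. Over the 655 genes tested, the untreated mouse lay below all 4 vehicle mice for 216 (33%) and above all 4 for 255 (38.9%). Its lane held 47977 endogenous counts, some of the values counted here lay under the background of that lane, and a single mouse gives no spread. Cd74 was 220.8 in this mouse against 161 to 273 after venetoclax and 456 to 571 after vehicle. Klrd1 was 38.4, above all 7 mice of the comparison.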
